A study of Mus musculus with 78 samples.

Results

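The 10 genes described here encode enzymes that oxidise ethanol or the aldehydes that follow from it. Adh1, Adh5, Adh7, Cat and Cyp2e1 can act on ethanol, and Aldh2, Aldh1a1, Aldh1b1, Aldh3a2 and Aldh9a1 act on acetaldehyde or related aldehydes. They were chosen by name from the 55367 genes of the deposited count tables, and all 10 were found in both tables. The study measured RNA by sequencing in 7 dissected brain regions of C57BL/6J mice with a constitutive Acss2 knockout (KO) or with both copies intact (WT). The 78 libraries came from 12 adult mice, 3 each of female KO, female WT, male KO and male WT, and fell into 28 groups of region, sex and genotype. Of these groups, 23 had 3 libraries, 4 had 2, and the male KO prefrontal cortex had 1. The KO deletion removes exons 3 to 7, was made with Cas9 and guides in the flanking introns, and was backcrossed for 3 generations. Every mouse drank ethanol (15% by volume) by choice in limited sessions in the dark, 2 h a day on days 1 to 3 and 4 h on day 4. Water was offered beside ethanol in the first week of sessions and withheld during sessions in week 2. No group went without ethanol, so the levels below are levels in drinking mice, and an effect of drinking itself cannot be read from them. The mice's ages are not analysed here.

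In the liver, ethanol is oxidised to acetaldehyde mainly by cytosolic alcohol dehydrogenases, and acetaldehyde is oxidised to acetate mainly by ALDH2 in mitochondria. The brain is known for another balance, in which the peroxisomal enzyme catalase, using hydrogen peroxide, and the microsomal cytochrome CYP2E1 are held to do much of the local oxidation of ethanol. Acetate is then joined to coenzyme A by ACSS2, the enzyme missing in the KO mice, so the oxidation of ethanol and acetaldehyde lies upstream of the deleted step.

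The alcohol dehydrogenase genes Adh7, Adh1 and Adh5 lie in that order on the plus strand of chromosome 3, with Adh6a, Adh6b and Adh4 between Adh1 and Adh5, and differed widely in level, so their promoters are shown. In GENCODE M21 (GRCm38), Adh7 spans chr3:138217760-138233382, Adh1 spans chr3:138260991-138290698 and Adh5 spans chr3:138443093-138455499. The promoter of Cyp2e1, which was also near 0, and the more upstream promoter of Aldh1a1, the member whose level varied most, are shown for comparison. Each window runs from 250 bases before to 50 bases after a RefSeq transcription start on GRCm38.p6 and is printed 5′ to 3′ on the gene's strand, with CG dinucleotides in capitals.
Adh7 (chr3:138217523-138217822): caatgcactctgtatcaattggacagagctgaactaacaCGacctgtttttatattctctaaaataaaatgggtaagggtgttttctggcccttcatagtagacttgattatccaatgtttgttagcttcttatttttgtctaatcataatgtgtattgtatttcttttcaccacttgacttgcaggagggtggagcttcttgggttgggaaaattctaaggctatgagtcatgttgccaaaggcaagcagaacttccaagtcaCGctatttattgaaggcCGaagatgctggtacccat
Adh1 (chr3:138277335-138277634): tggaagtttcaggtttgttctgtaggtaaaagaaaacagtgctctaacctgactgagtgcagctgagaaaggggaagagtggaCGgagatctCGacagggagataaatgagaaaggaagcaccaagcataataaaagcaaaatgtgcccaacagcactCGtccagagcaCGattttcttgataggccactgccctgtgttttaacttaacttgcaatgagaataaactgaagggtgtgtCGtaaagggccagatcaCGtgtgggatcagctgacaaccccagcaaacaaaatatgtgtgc
Adh5 (chr3:138442843-138443142): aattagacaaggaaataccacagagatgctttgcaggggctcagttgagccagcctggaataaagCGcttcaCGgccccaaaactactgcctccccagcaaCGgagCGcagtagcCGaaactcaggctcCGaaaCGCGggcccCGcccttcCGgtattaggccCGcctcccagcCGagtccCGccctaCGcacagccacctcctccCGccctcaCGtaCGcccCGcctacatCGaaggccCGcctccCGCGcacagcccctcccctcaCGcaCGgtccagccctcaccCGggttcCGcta
Cyp2e1 (chr7:140763569-140763868): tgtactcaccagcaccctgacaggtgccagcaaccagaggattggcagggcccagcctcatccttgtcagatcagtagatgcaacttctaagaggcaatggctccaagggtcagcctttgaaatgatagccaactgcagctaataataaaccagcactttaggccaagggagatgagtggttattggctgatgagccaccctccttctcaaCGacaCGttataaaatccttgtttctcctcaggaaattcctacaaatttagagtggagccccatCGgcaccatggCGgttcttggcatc
Aldh1a1 (chr19:20492333-20492632): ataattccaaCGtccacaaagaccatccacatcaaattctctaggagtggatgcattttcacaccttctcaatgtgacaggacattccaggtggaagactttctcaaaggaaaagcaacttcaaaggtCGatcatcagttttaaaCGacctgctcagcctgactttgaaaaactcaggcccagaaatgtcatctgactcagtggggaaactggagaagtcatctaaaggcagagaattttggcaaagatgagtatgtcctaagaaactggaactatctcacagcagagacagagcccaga

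The Adh5 window held 26 CG dinucleotides, more than 83.1% of the 32851 RefSeq windows of the same length, whose median was 7. The other windows shown held 3 (Adh7), 6 (Adh1), 4 (Cyp2e1) and 3 (Aldh1a1). The Adh1 window lies inside the GENCODE span of the gene, because an annotated transcript starts further upstream. Adh5 and Aldh1a1 each had another RefSeq window, with 3 and 1 CG dinucleotides. The other Aldh1a1 window (chr19:20601718-20602017) lies downstream of the 1 shown, inside the GENCODE span of the gene. Which start these libraries used was not tested. Among the members not shown, the counts were 21 for Aldh3a2, 11 for Cat, 9 for Aldh9a1 and 7 for Aldh1b1. Aldh2 had no window in the table. The TATAAA motif, searched on both strands, occurred in the Adh7 and Cyp2e1 windows, in the other Adh5 window, and in 13.6% of all windows. GGGCGG, also searched on both strands, occurred 3 times in the Adh5 window shown, once each in those of Cat, Aldh1b1 and Aldh3a2, and in 35.7% of all windows. Aldh1a1, with 3 in the window shown and 1 in the other, was among the higher genes per length. A relation of CG content to RNA level was not tested.

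The libraries formed 2 sets of different depth, and levels were tested only within a set. The 47 deeper libraries, from both striatal regions, dorsal hippocampus and amygdala, held 4454420 to 14487778 counts (median 6731648). The 31 shallower ones, from both cortical regions and ventral hippocampus, held 629635 to 1228828 (median 936338). Depth set and region set cannot be told apart. A count of 0 allows up to 3 counts, which is 0.207 to 0.673 CPM (counts scaled by the column total) in a deeper library and 2.44 to 4.76 CPM in a shallower one. Such limits cover counting error only. The genotype labels held: Acss2 was 0.971 to 14 CPM in the 40 KO libraries and 35.9 to 73.8 CPM in the 38 WT libraries. Sex-linked genes went against the label in 1 library, female WT prefrontal cortex of mouse 23. In 8 libraries the summed CPM of 7 markers of striatal projection neurons went against the region label, under 1000 CPM in a striatal library or over 1000 CPM elsewhere, a limit chosen after seeing the values. They were dorsal striatum of female WT mouse 23 (180 CPM) and male KO mouse 10 (344 CPM), ventral striatum of male KO mouse 10 (881 CPM) and male WT mouse 13 (345 CPM), amygdala of female KO mouse 6 (1968 CPM), ventral hippocampus of female KO mouse 6 (3260 CPM), and prefrontal cortex of female KO mouse 5 (1596 CPM) and male KO mouse 1 (1088 CPM). The other 20 striatal libraries had 1386 to 7172 CPM and the other 50 libraries 85.3 to 926 CPM. In bulk tissue such as this, fewer cells of a type and less RNA per cell cannot be told apart.

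Of the enzymes that act on ethanol, Adh5 and Cat were measured in every library, while Adh1, Adh7 and Cyp2e1 were at or near the limit of detection. Adh1, the classical ethanol dehydrogenase of liver, had 188 counts over all 78 libraries, Cyp2e1 had 77 and Adh7, which favours retinol, had 45. Adh1 was at 0 in 24 libraries, Cyp2e1 in 40 and Adh7 in 57. At least 3 counts were reached in 26 libraries by Adh1, 11 by Cyp2e1 and 6 by Adh7, and all of those were deeper libraries. None of the 3 genes passed the filter on low counts, so no test was made on them, and in the shallower regions their levels were not detectable at this depth.

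Adh1 reached its highest values in libraries rich in choroid plexus markers. The 5 deeper libraries with a summed level of Ttr, Folr1, Kl, Clic6 and Kcnj13 over 4000 CPM, a limit chosen after seeing the values, had 5 to 17 Adh1 counts, or 0.599 to 2.68 CPM (median 1.64). The other 42 deeper libraries had 0 to 8 counts, or 0 to 1.04 CPM (median 0.36). In the 5 libraries Adh1 stood at 0.599 and 1.64 CPM in amygdala of female KO mice 4 and 5, 1.52 and 2.68 CPM in dorsal striatum of female KO mice 5 and 6, and 2.33 CPM in dorsal hippocampus of female WT mouse 23. All 5 came from females and 4 of them from KO mice, so a comparison of Adh1 counts by sex or genotype would lean on these libraries. The part of choroid plexus tissue in their Adh1 counts was not tested. The lowest of the 5 lay inside the range of the other libraries. Exons of Adh1 share 136 bases (6.09% of its exonic length) with the antisense gene Gm16559, and whether counting used strand is not given in the sources used here. Adh7 peaked at 9 counts (1.45 CPM) in ventral striatum of male WT mouse 13, followed by 5 and 4 counts in amygdala of male WT mice 12 and 3. That ventral striatal library is among the 8 whose striatal markers went against the label. Cyp2e1 reached at most 5 counts, in amygdala of male WT mice 12 (0.595 CPM) and 13 (0.654 CPM), and among deeper libraries its highest CPM was 0.726, from 4 counts in ventral striatum of female WT mouse 23.

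**Figure D1:**
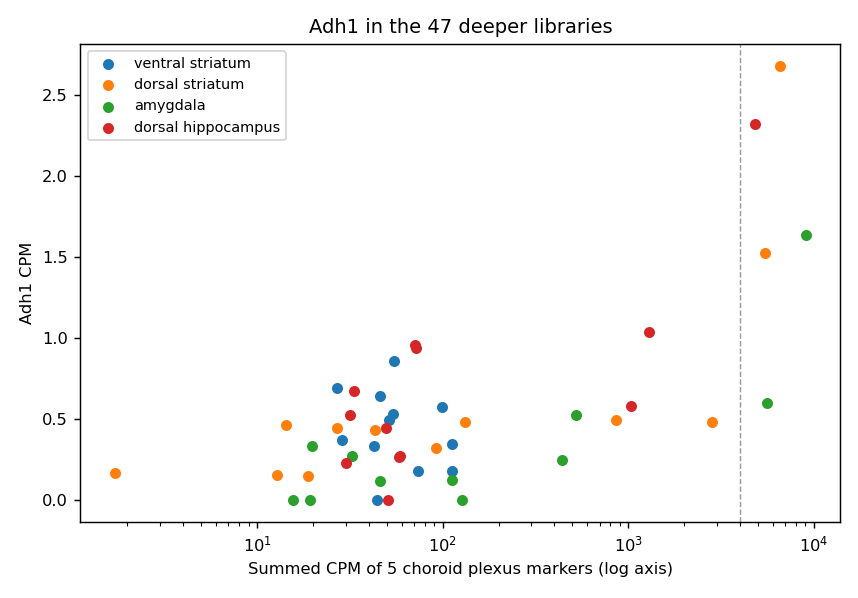
Adh1 CPM (vertical axis) against the summed CPM of 5 choroid plexus markers (log axis) in the 47 deeper libraries, each point 1 library coloured by region. The 5 libraries right of the dashed line at 4000 CPM reached 0.599 to 2.68 CPM of Adh1, against 0 to 1.04 CPM in the other 42.

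The other 7 members were measured in every library and could be ordered by level per exonic kilobase. Over all libraries the median was highest for Aldh2 (20.7 CPM per kb), the main mitochondrial acetaldehyde dehydrogenase, and next for Cat (17.4 CPM per kb). Aldh1a1 (11.4 CPM per kb), Aldh9a1 (10.7 CPM per kb), Adh5 (10.2 CPM per kb) and Aldh3a2 (9.40 CPM per kb) lay close together, and Aldh1b1 was lowest (4.55 CPM per kb). By exonic length Aldh2 led every region except dorsal hippocampus, where the medians were 22.4 CPM per kb for Cat, 21.1 for Aldh2 and 21.1 for Aldh1a1. The order depends on the length used. By the longest transcript Aldh1a1 came to 23.8 CPM per kb, Aldh3a2 to 17.1, Adh5 to 14.8 and Aldh9a1 to 12.8, with Cat at 17.4, Aldh2 (27.5) still first over all libraries and Aldh1b1 (4.55) still last. By that length Aldh1a1 led in dorsal hippocampus (44.1 against 28 for Aldh2), cortex (37.8 against 28.7) and ventral hippocampus (28.6 against 27.8). In prefrontal cortex Aldh1a1 was the lowest of the 7 per exonic kb (3.05 CPM), but not by the longest transcript, where it stood at 6.39 CPM per kb and Aldh1b1 at 4.93. Aldh2 exons share 130 bases with Gm42879 on the other strand.

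**Figure D2:**
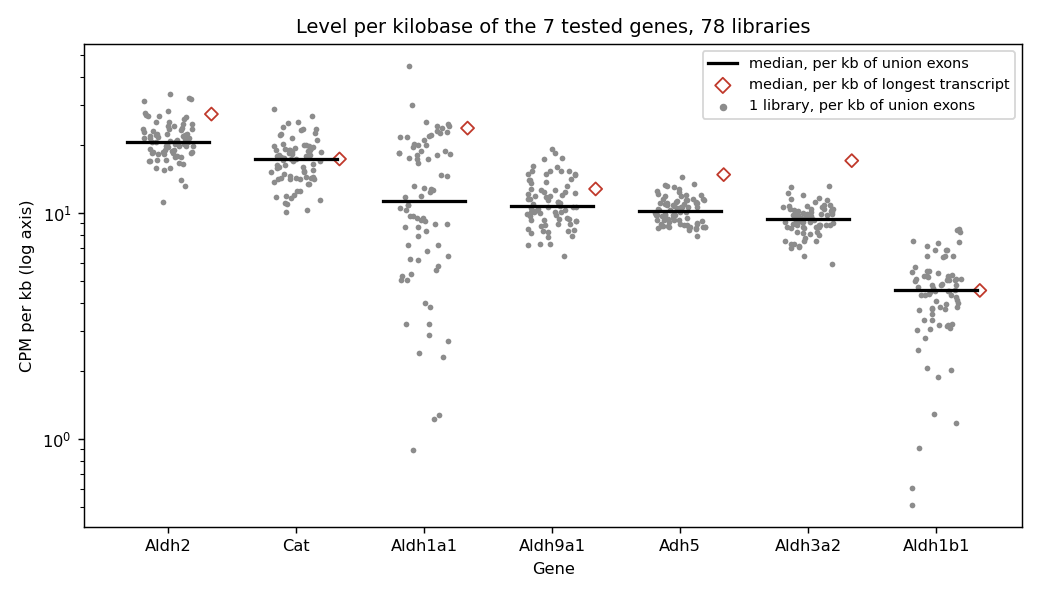
CPM per kilobase of union exons (log axis) of the 7 tested members, 1 grey point for each of 78 libraries and a black bar at the median, with red diamonds for the median by the longest transcript. Over all libraries Aldh2 is first and Aldh1b1 last by either length, and Aldh1a1 has the widest spread.

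Differences between regions were tested with edgeR's quasi-likelihood F test, with Benjamini-Hochberg adjustment over all genes. Among the 4 deeper regions all 7 tested members were called (adjusted p under 0.05), where the share called among all 15140 genes was 76.6%. Among the 3 shallower regions 4 of 7 were called, Aldh1a1, Aldh1b1, Cat and Aldh9a1, against 50.7% of 11195 genes. Aldh1b1 entered that test through the regions where it was higher, so its call there is uncertain. Over the 9 pairs of regions within a set, 24 of 63 member tests were called. These include the Aldh1b1 calls against cortex, which carry the same limit. The pairs' own shares over all genes ran from 13.9% for ventral against dorsal striatum to 54.8% for dorsal striatum against amygdala. The members' count is therefore near what most genes show, and the results lie in which genes differed and by how much. Without the 8 libraries whose striatal markers went against the label, 30 of 63 were called and 22 of the 24 calls held. With WT libraries only, which are fewer, 12 of the 24 calls held. Those lost (adjusted p = 0.0609 to 0.831) were all 3 for Adh5, all 3 for Aldh9a1, both Cat differences of ventral hippocampus, Aldh2 and Aldh3a2 between amygdala and dorsal hippocampus, Aldh1b1 between ventral striatum and amygdala, and Aldh1a1 between dorsal striatum and amygdala.

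Aldh1a1, a cytosolic enzyme that oxidises retinal as well as acetaldehyde, varied most between regions, with a ratio of 6.91 between the highest and the lowest regional median. Its lowest, median and highest values were 90.1, 104 and 222 CPM in dorsal hippocampus (n = 12) and 30.9, 49.5 and 120 CPM in dorsal striatum (n = 12). In ventral striatum (n = 12) they were 15.9, 44.1 and 58.7 CPM, and in amygdala (n = 11) 6.06, 30.7 and 72.9 CPM. Every dorsal hippocampal library was above every ventral striatal and every amygdalar library. Such separation occurred in 7.46% and 2.87% of genes in these pairs. The log2 difference was -1.55 ± 0.25 (SE) for ventral striatum minus dorsal hippocampus (adjusted p = 9.76e-07), -1.93 ± 0.26 for amygdala (adjusted p = 8.38e-08) and -0.91 ± 0.24 for dorsal striatum (adjusted p = 0.00152), where edgeR called 53.2%, 38.6% and 54.2% of genes. Dorsal striatum was also above amygdala, by 1.02 ± 0.25 (adjusted p = 0.000759, 54.8% of genes called), but the ranges overlapped, and with WT libraries alone this difference was 0.36 and not called. The highest dorsal hippocampal library, 222 CPM in female WT mouse 23, was the one with 4794 CPM of choroid plexus markers, and the next was at 149 CPM. The library of mouse 23 also had the lowest summed hippocampal markers of the region, 332 CPM against 595 to 828 CPM.

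In the shallower set, Aldh1a1 was 63.2, 89.2 and 120 CPM (lowest, median, highest) in cortex (n = 11) and 26.1, 67.4 and 125 CPM in ventral hippocampus (n = 12). In prefrontal cortex (n = 8) it was 4.39, 15.1 and 35.9 CPM. Cortex and prefrontal cortex did not overlap, as for 5.29% of genes, and differed by 2.46 ± 0.29 on the log2 scale (adjusted p = 5.34e-08, 38% of genes called). Ventral hippocampus exceeded prefrontal cortex by 2.06 ± 0.29 (adjusted p = 2.56e-06, 30.1% of genes called) with overlapping ranges, and cortex and ventral hippocampus differed by 0.40 ± 0.21 (adjusted p = 0.173). The paralogue Aldh1a7, whose sequence is nearly identical, stayed at or under 4.96 CPM in every library, and reads could be split between the genes, so the Aldh1a1 level carries that uncertainty.

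**Figure D3:**
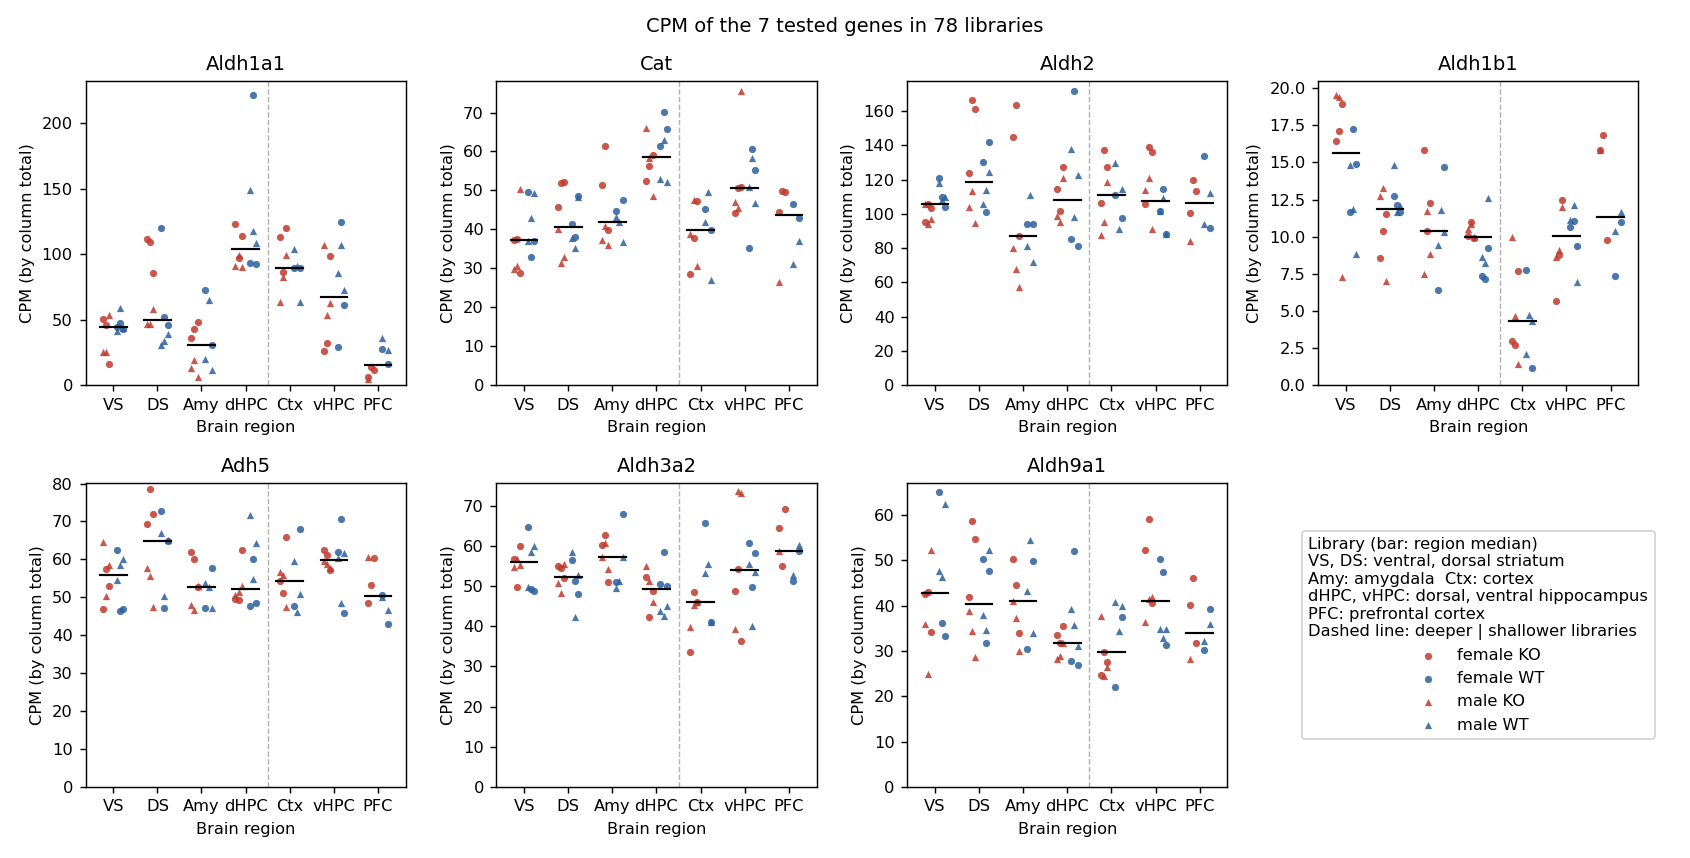
CPM by column total (vertical axes from 0) of the 7 tested members in 7 regions, 1 point per library, red for KO and blue for WT, circles for females and triangles for males, with a bar at the region median. The dashed line parts the deeper from the shallower libraries, between which levels were not tested; Aldh1a1 ranges from a median of 15.1 CPM in prefrontal cortex to 104 CPM in dorsal hippocampus.

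Cat, the catalase that can use hydrogen peroxide to oxidise ethanol, was highest in dorsal hippocampus, at 48.6, 58.6 and 70.1 CPM (lowest, median, highest). It was 28.8, 37.2 and 50.3 CPM in ventral striatum, 31.3, 40.7 and 52.2 CPM in dorsal striatum, and 36, 41.9 and 61.4 CPM in amygdala. The dorsal hippocampal range overlapped each of the others, although its median lay above the highest value in both striatal regions. The log2 differences from dorsal hippocampus were -0.67 ± 0.08 for ventral striatum (adjusted p = 7.33e-09), -0.53 ± 0.08 for dorsal striatum (adjusted p = 9.87e-07) and -0.48 ± 0.09 for amygdala (adjusted p = 1.70e-05). No Cat difference among those 3 regions was called, with adjusted p from 0.0642 to 0.664. In the shallower set Cat was 35.2, 50.7 and 75.6 CPM in ventral hippocampus, 27, 39.9 and 49.7 CPM in cortex and 26.4, 43.6 and 49.7 CPM in prefrontal cortex. Cortex minus ventral hippocampus was -0.35 ± 0.13 (adjusted p = 0.0364, 28.9% of genes called) and ventral hippocampus minus prefrontal cortex 0.39 ± 0.14 (adjusted p = 0.0277). Both calls were fragile. The cortical one was lost with mouse as a replicate block (adjusted p = 0.0543) and without any of female mice 4, 5, 23 or 24 or male mice 10 or 13 (adjusted p = 0.0587 to 0.118). The prefrontal one was lost without any of mice 23, 1, 12 or 3 (adjusted p = 0.0576 to 0.122), and without the libraries whose striatal markers went against the label it was 0.31 (adjusted p = 0.126).

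Adh5, which mainly detoxifies formaldehyde bound to glutathione and oxidises ethanol poorly, was the steadiest of the ethanol-acting members. Its regional medians ran from 50.3 CPM in prefrontal cortex to 64.9 CPM in dorsal striatum, and all libraries lay between 42.8 and 78.4 CPM. Dorsal striatum (47.1, 64.9 and 78.4 CPM) exceeded amygdala (46.5, 52.8 and 61.9 CPM) by 0.26 ± 0.07 (adjusted p = 0.0015) and was above ventral striatum (46.5, 55.9 and 64.6 CPM). The ventral minus dorsal difference of -0.21 ± 0.07 (adjusted p = 0.0347, 13.9% of genes called) was lost without any of female KO mice 4, 5 or 6, female WT mouse 24 or male WT mouse 3 (adjusted p = 0.0511 to 0.109) and without the low-count filter (adjusted p = 0.0611). In each of these regions 2 libraries carry low striatal markers. Dorsal hippocampus was at 47.6, 52.1 and 71.6 CPM, cortex at 46.2, 54.2 and 68.1 CPM, and ventral hippocampus at 45.8, 59.9 and 70.7 CPM. Ventral hippocampus minus prefrontal cortex (42.8, 50.3 and 60.6 CPM) was 0.24 ± 0.09 (adjusted p = 0.0493), a call lost with mouse as a replicate block (adjusted p = 0.0666), with DESeq2 size factors (adjusted p = 0.052), without the low-count filter (adjusted p = 0.259), and when any of 10 of the 12 mice was left out, all but female WT mouse 24 and male KO mouse 1 (adjusted p = 0.0511 to 0.166).

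Aldh2, the mitochondrial enzyme that clears most acetaldehyde, had medians from 87.0 CPM in amygdala to 119 CPM in dorsal striatum. Its lowest, median and highest values were 57.6, 87.0 and 164 CPM in amygdala, 94.8, 119 and 167 CPM in dorsal striatum, 81.5, 108 and 172 CPM in dorsal hippocampus and 94.0, 106 and 121 CPM in ventral striatum. All 4 ranges overlapped, and amygdala held both the lowest value and 1 of the 3 highest. Dorsal striatum exceeded amygdala by 0.40 ± 0.10 (adjusted p = 0.00103), and amygdala was below dorsal hippocampus by -0.32 ± 0.10 (adjusted p = 0.0131). The second call was lost without male KO mouse 10 (-0.24, adjusted p = 0.0729) or male WT mouse 3 (-0.27, adjusted p = 0.0532). In cortex, ventral hippocampus and prefrontal cortex the medians were 111, 107 and 106 CPM, and the F test did not pass (adjusted p = 0.345).

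Aldh1b1, a mitochondrial relative of ALDH2 that also takes acetaldehyde, had the lowest level per length of the tested members over all libraries and its highest regional median in ventral striatum. There it was 7.26, 15.7 and 19.6 CPM, against 7.04, 11.9 and 14.9 CPM in dorsal striatum, 6.43, 10.4 and 15.8 CPM in amygdala and 7.13, 9.96 and 12.6 CPM in dorsal hippocampus. Ventral striatum exceeded amygdala by 0.46 ± 0.15 (adjusted p = 0.00957, 46.3% of genes called) and dorsal hippocampus by 0.56 ± 0.14 (adjusted p = 0.00105), with overlapping ranges, while the difference from dorsal striatum was not called (0.32 ± 0.14, adjusted p = 0.124). The 2 lowest ventral striatal values, 7.26 CPM in male KO mouse 10 and 8.87 CPM in male WT mouse 13, were the libraries with low striatal markers, and without the 8 marker-discordant libraries the differences were 0.61 and 0.71. In cortex Aldh1b1 had only 1 to 9 counts a library (1.17, 4.32 and 9.99 CPM), and 7 of 11 libraries reached 3 counts. Ventral hippocampus had 5.67, 10.0 and 12.5 CPM and prefrontal cortex 7.35, 11.3 and 16.9 CPM. Cortex was lower than ventral hippocampus by -1.07 ± 0.26 (adjusted p = 0.00164) and lower than prefrontal cortex by -1.35 ± 0.27 (adjusted p = 0.000149), with overlapping ranges. Aldh1b1 failed the low-count filter in the cortex genotype fits and passed it in those of ventral hippocampus and prefrontal cortex. It thus entered the tests of the shallower set through the regions where it was higher. Both the calls and the size of the cortical differences are therefore uncertain.

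Aldh3a2, an enzyme of fatty aldehyde oxidation, varied little, with medians from 46.1 CPM in cortex to 58.8 CPM in prefrontal cortex. Amygdala (49.7, 57.3 and 67.9 CPM) was above dorsal hippocampus (42.4, 49.4 and 58.4 CPM) by 0.17 ± 0.06 (adjusted p = 0.0155), the only Aldh3a2 pair called. Ventral striatum was at 48.9, 56.0 and 64.8 CPM and dorsal striatum at 42.5, 52.4 and 58.6 CPM. In the shallower set the range was widest in ventral hippocampus, 36.3 to 73.8 CPM. The F test of the deeper set (adjusted p = 0.0377) was lost with mouse as a replicate block (adjusted p = 0.0522) and without any of mice 4, 5, 10, 2, 12 or 13 (adjusted p up to 0.101).

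Aldh9a1, which oxidises aminobutyraldehyde and its trimethylated form in carnitine synthesis, was lower in dorsal hippocampus than in either striatal region. It was 26.8, 31.7 and 52.1 CPM there, 24.8, 42.8 and 65.0 CPM in ventral striatum, 28.6, 40.4 and 58.6 CPM in dorsal striatum and 30.1, 41.1 and 54.4 CPM in amygdala. Both striatal differences from dorsal hippocampus were 0.31 ± 0.11 on the log2 scale (adjusted p = 0.0173 for ventral and 0.0168 for dorsal striatum), and all ranges overlapped. The ventral call was lost with mouse as a replicate block (adjusted p = 0.0517), without female WT mouse 11 (adjusted p = 0.0702) or male WT mouse 13 (adjusted p = 0.0671), and without the marker-discordant libraries (0.21, adjusted p = 0.0852). The F test of the deeper set (adjusted p = 0.035) was likewise lost with the block (adjusted p = 0.094) and without any of mice 4, 5, 11, 1 or 13. Cortex (22, 29.7 and 40.8 CPM) was below ventral hippocampus (31.2, 41 and 59.2 CPM) by -0.38 ± 0.12 (adjusted p = 0.0189), a call lost without female KO mouse 4 or 5 or female WT mouse 11 (adjusted p = 0.0609 to 0.084). Prefrontal cortex was at 28.1, 34 and 46.2 CPM.

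The design next asks whether loss of ACSS2, which uses acetate, changed the RNA of these enzymes. With both sexes in 1 fit and sex as a term, none of the 48 tests of a member in a region was called, where 0.0191% of all gene tests were (17 of 89216). Acss2 was the only gene called in 6 regions, and 11 genes were called in prefrontal cortex. Unadjusted p was under 0.05 in 3 of 48, against 4.86% of all tests. The KO and WT ranges were apart in 1 of 48, against 0.695% of all tests. Of the 48 95% intervals of the log2 fold change, 45 held 0, 44 lay within -1 and 1, and 35 lay within a 1.5-fold change either way. The smallest adjusted p was 0.119.

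Member by member, Adh5 had log2 fold changes (KO minus WT) from -0.12 in dorsal hippocampus to 0.24 in prefrontal cortex. Cat ran from -0.22 in ventral striatum to 0.03 in ventral hippocampus. Aldh3a2 ran from -0.25 in cortex to 0.14 in prefrontal cortex and Aldh9a1 from -0.32 in ventral striatum to 0.24 in ventral hippocampus. Aldh1b1, not tested in cortex, ran from -0.23 in dorsal striatum to 0.59 in prefrontal cortex. None of these intervals excluded 0. Aldh2 was -0.16 ± 0.07 in ventral striatum (95% interval -0.30 to -0.01, adjusted p = 0.646), with 94.0 to 106 CPM in the 6 KO libraries and 104 to 121 CPM in the 6 WT libraries. Those ranges overlapped through the lowest WT library, and in the other 6 regions Aldh2 lay between -0.13 and 0.24.

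Aldh1a1 gave the widest set of KO differences, from -1.53 in prefrontal cortex to 0.53 in dorsal striatum, and none was called. In prefrontal cortex the KO libraries had 6.34, 14.2 and 11.4 CPM (female mice 4, 5 and 6) and 4.39 CPM (male mouse 1), from 5 to 16 counts each. The WT libraries had 27.8 and 15.9 CPM (female mice 11 and 23) and 35.9 and 26.5 CPM (male mice 3 and 12), from 13 to 38 counts. Every KO library was below every WT library, as in 1.88% of genes in this region. The library of mouse 23 had 0 CPM of Xist and 73.4 CPM of Ddx3y but was fitted by its label as female. By these sex-linked genes the KO libraries were mostly female and the WT libraries mostly male. Sex and genotype can therefore be only partly told apart here. The log2 fold change was -1.53 ± 0.37 (95% interval -2.32 to -0.74, edgeR adjusted p = 0.119), short of the threshold. It passed without the low-count filter (-1.52, adjusted p = 0.000327) and without the library of mouse 23 whose sex-linked genes went against its label (-1.84, adjusted p = 0.0367). Both settings also called more genes in this region than the 11 of the main fit, so the passing is not particular to Aldh1a1. DESeq2 gave -1.57 (adjusted p = 0.0912). It was -1.07 without male KO mouse 1 (adjusted p = 0.447) and -1.32 without mice 5 and 1, whose striatal markers were high (adjusted p = 0.633).

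Markers of other cell types moved with genotype in the same 8 libraries. Of 15 marker lists, 3 had KO and WT ranges apart. The summed level of 7 striatal projection neuron markers was 547 to 1596 CPM in KO and 179 to 291 CPM in WT. Meningeal and perivascular fibroblast markers (6 genes) were 26.9 to 73.9 CPM in KO and 94.2 to 195 CPM in WT. The 2 genes of the amygdala list, Tfap2d and Nr2f2, were 3.17 to 11.4 CPM in KO and 19.8 to 29.4 CPM in WT, with Tfap2d at 0 in KO. Dopamine neuron markers (Th, Slc6a3, Slc18a2 and Ddc), named because Aldh1a1 marks a subset of midbrain dopamine neurons, were 13.2 to 21.2 CPM in KO and 13.5 to 93.4 CPM in WT and overlapped. The part of these tissues in the Aldh1a1 difference was not tested.

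**Figure D4:**
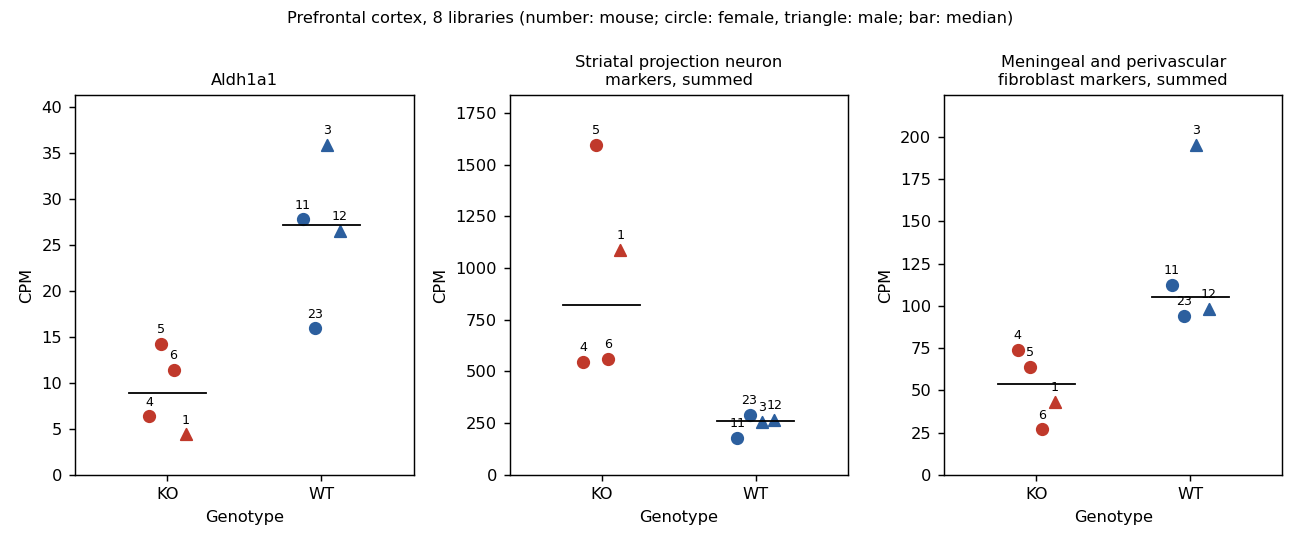
Aldh1a1 and the summed striatal and fibroblast markers (CPM, axes from 0) in the 8 prefrontal cortex libraries by genotype, numbered by mouse, circles for females and triangles for males, with a bar at the median. All 4 KO libraries lie below all 4 WT libraries for Aldh1a1 (4.39 to 14.2 against 15.9 to 35.9 CPM) and fibroblast markers, and above them for striatal markers.

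In dorsal striatum Aldh1a1 went the other way, at 0.53 ± 0.21 (95% interval 0.08 to 0.98, adjusted p = 1.00). Female KO libraries had 112, 109 and 85.5 CPM and male KO libraries 46.9, 46.9 and 58.3 CPM. Female WT libraries had 120, 52.2 and 46.2 CPM and male WT libraries 30.9, 33.4 and 39.2 CPM. KO and WT overlapped, since female WT mice 11 and 23, at 120 and 52.2 CPM, lay above the lowest KO libraries. The libraries of female WT mouse 23 and male KO mouse 10 (58.3 CPM) had low striatal markers, 180 and 344 CPM. Their summed cortical excitatory neuron markers were 2144 and 2057 CPM. The part of other tissue in the Aldh1a1 difference was not tested. Without female WT mouse 11 the difference was 0.78 (adjusted p = 0.511). In amygdala the difference was -0.84 ± 0.45 (adjusted p = 0.994) and was -0.31 without male WT mouse 12. In dorsal hippocampus it was -0.33 ± 0.18 (adjusted p = 1.00) and was -0.12 without female WT mouse 23, the library with high choroid plexus and low hippocampal markers. Ventral striatum (-0.38 ± 0.25), ventral hippocampus (-0.32 ± 0.34) and cortex (0.07 ± 0.15) also had intervals that held 0.

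**Figure D5:**
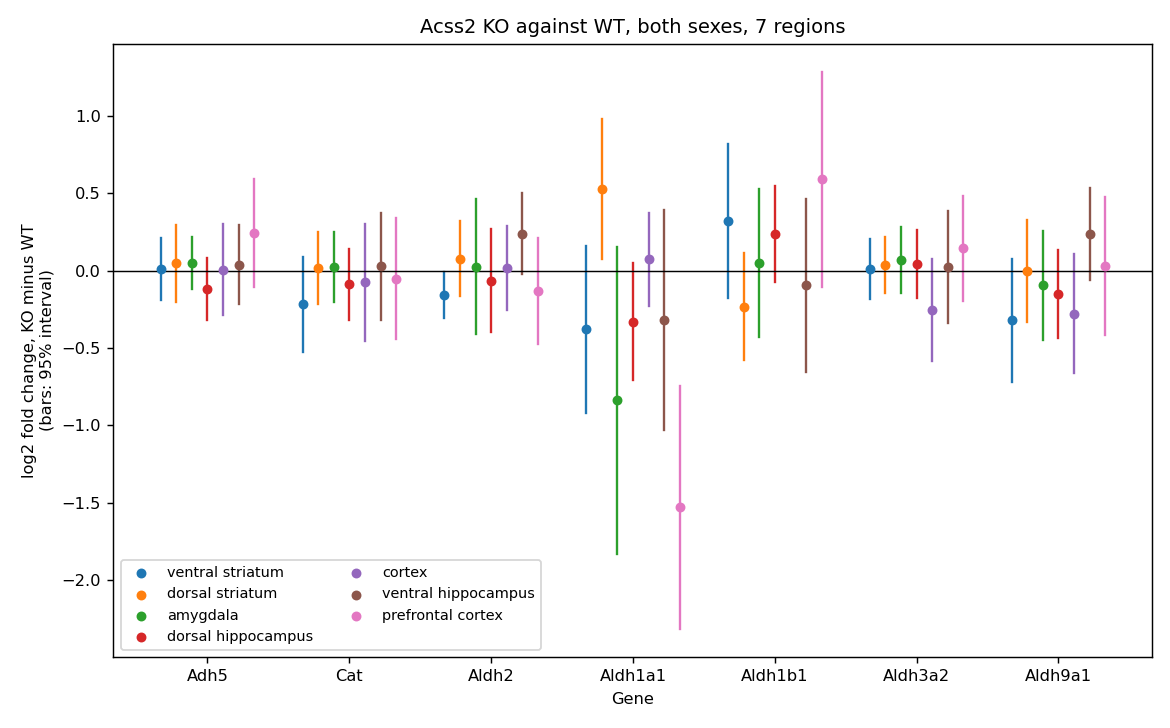
Log2 fold change, KO minus WT, of the 7 tested members in each region with both sexes in 1 fit (points, bars for the 95% interval). Of 48 intervals 45 hold 0; the exceptions are Aldh1a1 in prefrontal cortex and dorsal striatum and Aldh2 in ventral striatum, and none passed after adjustment.

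Within 1 sex, no member was called in 89 tests over 13 comparisons, where 0.035% of all tests were, and 3 had an unadjusted p under 0.05, against 4.52% of all tests. Ranges were apart in 10 of 89, near the 11.7% of all genes. In males KO was lower for Aldh2 in ventral striatum (94.0 to 106 against 108 to 118 CPM) and for Aldh1a1 in dorsal hippocampus (90.1 to 99.8 against 108 to 149 CPM), and higher for Aldh1a1 in dorsal striatum (46.9 to 58.3 against 30.9 to 39.2 CPM). Adh5 was lower and Aldh3a2 higher in male KO dorsal hippocampus, and Aldh9a1 higher in male KO ventral hippocampus. In females KO was lower for Cat in dorsal hippocampus (52.3 to 59.1 against 61.3 to 70.1 CPM), and Aldh1b1 was lower in dorsal striatum and higher in dorsal hippocampus. Aldh1a1 in prefrontal cortex was also lower in the 3 libraries labelled female KO than in the 2 labelled female WT, but the lower of those 2 (mouse 23, 15.9 CPM) is the library whose sex-linked genes went against its label, so this is not a comparison within females. The smallest adjusted p among the 89 was 0.386. The interaction of sex and genotype was called in 0 of 41 tests, as in 0% of all tests. It had an unadjusted p under 0.05 in 2 of 41, against 4.26% of all tests, and the smallest adjusted p was 0.763.

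Females were compared with males in the same fits, but each sex has its own count table, so sex and table cannot be told apart. No member was called in 48 tests, against 0.0493% of all tests, and 9 had an unadjusted p under 0.05, against 7.07%. Aldh1a1 was higher by 1.05 ± 0.21 in female dorsal striatum (edgeR adjusted p = 0.27), with 46.2 to 120 CPM in females and 30.9 to 58.3 CPM in males. The ranges overlapped, and DESeq2 called this difference (1.05, adjusted p = 0.00231). In amygdala the 5 female libraries had 35.8, 42.9, 48.1, 72.9 and 30.7 CPM and the 6 male libraries 13.4, 19, 6.06, 19.7, 65.0 and 11.9 CPM. Only male WT mouse 12, at 65.0 CPM, lay inside the female range. The difference was 1.25 ± 0.45 (adjusted p = 0.202) and passed without that library (1.70, adjusted p = 0.0454). Of the 15 marker lists, choroid plexus (127 to 9060 CPM in females, 15.7 to 112 CPM in males) and astrocyte markers (3816 to 4074 against 3141 to 3747 CPM) were also apart by sex in amygdala, and their part was not tested. Aldh2 (0.56 ± 0.20, adjusted p = 0.198) and Cat (0.30 ± 0.10, adjusted p = 0.195) were on the same side there without passing.

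Related enzymes were followed through 6 lists of 55 genes. No gene of these lists was called by genotype in any region, with 40 to 47 of them tested in each. Across the deeper regions 34 of 48 tested genes were called, and across the shallower regions 27 of 42, against the 76.6% and 50.7% of all genes given above. Of the other alcohol dehydrogenases, Adh4 had no count in any library, Adh6a and Adh6b had a median of 0 in every region, and Adhfe1, a mitochondrial hydroxyacid transhydrogenase, had medians of 16.1 to 23.7 CPM. Adhfe1 was higher in ventral hippocampus than in prefrontal cortex by 0.60 ± 0.18 (adjusted p = 0.0115).

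Among the other aldehyde dehydrogenases 7 of 12 tested genes were called across the deeper regions and 5 of 7 across the shallower ones. Aldh5a1, which ends the breakdown of GABA, was higher in ventral striatum than in dorsal striatum (0.34 ± 0.06, adjusted p = 0.00023), amygdala (0.52 ± 0.06) and dorsal hippocampus (0.53 ± 0.06). Aldh3b2 was higher in amygdala than in dorsal hippocampus by 2.33 ± 0.41 (adjusted p = 1.2e-05), from a median of 3.32 against 0.736 CPM. The dorsal hippocampal median lies near the count floor, up to 0.673 CPM in a deeper library. Aldh3b2, 1 of the 7 genes called across the deeper regions, may thus have entered the tests through regions where it was higher. Both the call and the size of this difference are therefore uncertain. Aldh1l1, an astrocyte folate enzyme, was higher in cortex than in prefrontal cortex (0.70 ± 0.15, adjusted p = 0.00045) and ventral hippocampus (0.57 ± 0.14), the same direction as Aldh1a1 against prefrontal cortex.

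Among the peroxide and peroxisome genes 12 of 15 were called across the deeper regions and 10 of 15 across the shallower ones. Gpx3, a secreted glutathione peroxidase, had its highest median in amygdala (29.3 CPM, range 3.03 to 80.6) against 2.55 to 8.83 CPM elsewhere, and exceeded dorsal hippocampus by 2.94 ± 0.51 (adjusted p = 9.6e-06). In cortex against prefrontal cortex 8 of 15 were called, against 38% of all genes, and Prdx5 (0.88 ± 0.09) and Gpx4 (0.86 ± 0.11), which remove peroxides, were higher in cortex. Of 6 genes for electron supply and haem, Por, the reductase that serves CYP2E1, was present at medians of 65.5 to 96.6 CPM although Cyp2e1 was near 0. Among carbonyl reductases Akr7a5 was lower in dorsal striatum than in amygdala by -1.16 ± 0.09 (adjusted p = 1.4e-13). Among glutathione genes Gss, the synthetase of the cofactor that ADH5 needs, was lower in amygdala than in dorsal hippocampus by -0.87 ± 0.11 (adjusted p = 1.5e-08), and Esd, which acts after ADH5 in formaldehyde removal, was higher in cortex than in prefrontal cortex by 0.68 ± 0.14 (adjusted p = 0.0002).

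The genes whose levels moved most like each member were found over the 47 deeper libraries, as the Pearson correlation of deviations from the mean of each sex, genotype and region group. The points share library, depth and dissection, so these are descriptions. For Adh5 they were Echs1 (r = 0.852), Micu2 and Rnf7, for Cat Sh3d19 (0.823), Clmn and Ppp2r3a, and for Aldh2 Cgnl1 (0.908), Slc4a2 and Acaa2. Aldh1a1 was most like Fndc5 (0.847), Acsl6 and Gls2, and Aldh1b1 most like Smyd3 (0.708), Lrpap1 and Gpr83. Aldh3a2 was most like Gm42433 (0.697), and Aldh9a1 most like Abhd4 (0.904), Agtrap and Nadk2. Between members the highest values were 0.694 for Adh5 and Aldh9a1, 0.682 for Cat and Aldh9a1 and 0.665 for Aldh2 and Aldh9a1. Aldh1b1 ran against Cat (-0.425).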

How the data were processed

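RNA from dissected brain regions was poly(A)-selected and sequenced, per the labels' protocols. The authors deposited raw counts per gene in 2 tables, one for each sex. The submitters' processing notes name STAR 2.5.2a, SAMtools 1.1, HTSeq 0.6.1, DESeq2, R 4.0.2 and GRCm38 (mm10), and the annotation and strand setting are not given in the sources used here. From these counts CPM was computed by column total. Each region was tested with edgeR 4.0.16 (quasi-likelihood, TMM, filterByExpr with a minimum count of 10, R 4.3.3) over all genes of the fit with Benjamini-Hochberg adjustment at 0.05, and region differences within each depth set. Adh1, Adh7 and Cyp2e1 failed the filter in every fit, and Aldh1b1 failed it in the cortex genotype fits. The code was tested on simulated data. Libraries of a group came from separate mice, and the same mice gave all regions, so mouse was tried as a replicate block; same-mouse deviations correlated at a mean r of 0.0451 (69 pairs) in the deeper and -0.0115 (24 pairs) in the shallower set. Alternatives were DESeq2 1.42.0 (size factors and Wald test), no low-count filter, WT libraries only, each mouse or library left out, and, added after seeing the data, leaving out the 8 libraries with discordant striatal markers. The members, the gene lists and the rule for related genes (the 3 highest correlations among genes of at least 5 CPM on average) were chosen with earlier results of these data known, and not every related gene is reported here. Promoter windows came from RefSeq on GRCm38.p6 and positions from GENCODE M21.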

Additional observations from a re-analysis of the deposited data

Results flagged for a closer look

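In groups of 4 to 6 libraries of 1 region and genotype, with the sexes together, 6 of 98 sets of member values held a library standing far from the others by Dixon's criterion, where chance gives about 1 in 20. They were Adh5 in dorsal hippocampus of female KO mouse 6 (62.4 CPM, the others 49.2 to 52.9), Aldh1a1 in dorsal striatum of female WT mouse 11 (120 CPM, the others 30.9 to 52.2) and Aldh1b1 in dorsal striatum of male WT mouse 3 (14.9 CPM, the others 11.6 to 12.7). Aldh1b1 was low in prefrontal cortex of female KO mouse 6 (9.77 CPM from 12 counts, the others 15.8 to 16.9) and in ventral striatum of male KO mouse 10 (7.26 CPM from 42 counts, the others 16.4 to 19.6), the latter a library with low striatal markers. Cat was high in ventral hippocampus of male KO mouse 10 (75.6 CPM from 63 counts, the others 44.3 to 50.9).

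Within 1 sex, every KO library lay on one side of every WT library in 1 region and on the opposite side in another for 2 genes. Ranges were apart within 1 sex in 10 of 89 member tests, near the 11.7% of all gene tests. Aldh1a1 in males had a log2 fold change of -0.37 in dorsal hippocampus and 0.59 in dorsal striatum. Aldh1b1 in females had 0.35 in dorsal hippocampus and -0.27 in dorsal striatum. The difference between regions was not tested in either case.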

How the results depend on the processing

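No called difference changed direction in the alternatives run. Of the genotype tests with both sexes, 0 members were called, 1 without the low-count filter (Aldh1a1 in prefrontal cortex), and 0 to 1 with a library left out. Within 1 sex and for the interaction the count stayed 0 to 0. For females against males it was 0, 1 with the DESeq2 Wald test, and 0 to 1 with a library left out. Across the deeper regions 7 members were called, 2 with WT libraries only and 5 to 7 with a mouse left out. Across the shallower regions the counts were 4, 2 and 3 to 5, and over region pairs 24, 12 and 20 to 25; the WT setting has fewer libraries by construction. With mouse as a replicate block they were 5, 4 and 21, and it changed no call beyond those given beside their results. Of all genes, 11 were called by genotype in prefrontal cortex, 42 with DESeq2, 367 without the filter, and 2 without the discordant libraries. With a library left out it was 7 to 102, namely 7 without female WT mouse 11, 24 without male WT mouse 3, 32 without male KO mouse 1, 76 without female WT mouse 23 and 102 without male WT mouse 12. In ventral hippocampus 101 were called without the filter instead of 1, in cortex 10, in dorsal hippocampus 2, and in amygdala 2 with DESeq2, each instead of 1. Ventral against dorsal striatum gave 2100 genes, 3183 without the discordant libraries, 1313 and 1298 without female KO mice 4 and 5, and 78 with WT libraries only. The WT libraries gave 6682 and 3189 genes in the F tests of the deeper and shallower regions (11597 and 5671 with all libraries), and 1776 to 4884 in the other 8 pairs (3233 to 8304 with all libraries). Library size by TMM moved regional medians by -7.09 to 8.20%. Depth limits Adh1, Adh7 and Cyp2e1 in every region and Aldh1b1 in cortex.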
